A study of Mus musculus with 9 samples.

Results

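The genes described here are the cytochrome P450 (CYP) genes of families 2 and 3 in mouse liver. They were taken by symbol from the deposited table: every gene named *Cyp2* or *Cyp3a* with its subfamily letter and number, leaving out *Cyp2e1* and pseudogenes. The rule found 56 of the 51912 genes listed. These 56 genes fall into 13 subfamilies on 6 chromosomes, and all are annotated as protein coding. The rule uses symbols and no measured value, but the members were chosen with earlier results of these data known.

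Liver RNA was compared between 5 mice given an antisense oligonucleotide (ASO) against apoC-III and 4 mice given a control ASO. All 9 mice were fasted and had the genotype *Apoe*-/- *Ndst1* f/f *Alb-Cre*+ on a C57Bl/6 background. Control livers therefore also lacked apoE, and also lacked the heparan sulfate sulfotransferase NDST1 in hepatocytes, the cells in which the albumin promoter drives Cre. The age and diet of these mice are not given in the sources used here, and the study's text does not state their sex.

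CYP enzymes are heme proteins of the endoplasmic reticulum that oxidize drugs, steroids, fatty acids and bile acids, with electrons passed on by the reductase POR. Families 2 and 3 hold most of the drug-metabolizing enzymes of the liver, and many of their genes lie in clusters of close copies. Several are induced through the nuclear receptors CAR (*Nr1i3*) and PXR (*Nr1i2*), some differ between male and female mice, and many are expressed unevenly between the periportal and pericentral ends of the liver lobule.

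The deposited unit was TPM, in which reads are divided by transcript length and every library is scaled to a total of 1000000. Nuclear protein-coding genes held only 3.04% to 5.31% of all TPM in the apoC-III ASO livers and 1.94% to 8.64% in the control ASO livers. They were therefore rescaled to 1000000 per liver and divided by median-of-ratios factors, and the result is called normalized TPM below. The factors lay between 0.939 and 1.42 for apoC-III ASO livers and between 0.491 and 1.15 for control livers, the lowest being that of control ASO replicate 4. This liver stands apart from the rest, and values without it are given for several genes below. TPM keeps no depth, so the depth is unknown and no counting intervals can be given. The targeted gene *Apoc3* had normalized TPM of 383, 436, 338, 630 and 491 in the apoC-III ASO livers and of 3410, 3207, 3521 and 4342 in the control livers. All 9 libraries thus carried the label's direction, with a log2 fold change of -3.01 (SE 0.23, limma adjusted p = 0.000388). *Alb*, which marks hepatocytes, lay between 15484 and 40183 normalized TPM in every liver, while a list of 4 pancreatic genes summed to at most 1.17.

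The 56 genes together made up 1.02% to 2.18% of protein-coding TPM in the apoC-III ASO livers and 0.896% to 1.74% in the control livers. Of the 56, 34 had a mean normalized TPM of at least 1 over the 9 livers and were tested among 11991 genes. The other 22 were under that mean, and 5 of them were listed at 0 in every liver (*Cyp2c66*, *Cyp2j11*, *Cyp2j12*, *Cyp2t4* and *Cyp2w1*). As levels per transcript length, *Cyp2f2*, *Cyp3a11*, *Cyp3a25*, *Cyp2a5* and *Cyp2c29* had the highest mean normalized TPM.

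No CYP gene of the 34 passed the limma test used here, although the study's own test on read counts listed *Cyp2c29* (below). By limma's moderated test, 0 of 34 had an adjusted p under 0.05 with a change over 1.5-fold, against 0.0167% of all genes tested, which were *Apoc3* and *Anpep*. Single values pointed mostly downward. The log2 fold change (apoC-III ASO over control ASO) was below 0 in 27 of the 34, against 50.1% of all genes, and its median over the 34 was -0.37, against -0.00123 over all genes tested. An unadjusted p under 0.05 with a lower level in the apoC-III ASO group was reached by 9 of the 34, against 2.57% of all genes, and by 0 in the other direction, against 2.99%. In 4 genes (*Cyp2c29*, *Cyp2c37*, *Cyp2a12* and *Cyp2d10*) every apoC-III ASO liver lay below every control liver, against 0.909% of all genes, and 0 lay above without overlap, against 110 of 11991 genes. CYP genes of a cluster share sequence and livers, so they are not independent of each other. In whole tissue, fewer cells of a type and less RNA per cell cannot be told apart.

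These counts depended on the scaling and on single livers. Without control ASO replicate 4, 6 of 34 were lower at an unadjusted p under 0.05, against 2.52% of all genes, and the 4 genes without overlap were the same, against 1.97%. In TPM as deposited, 26 of the 56 were tested, 1 was lower at an unadjusted p under 0.05 (*Cyp2a4*), against 0.972% of all genes, and 0 of them lay below without overlap. The median log2 fold change of the 26 was -0.08 there, while that of all genes tested was 0.11. With protein-coding rescaling but no factors, the median was 0.10 for the CYP genes and 0.41 for all genes, a difference of -0.31. The log2 fold change was then below 0 in 12 of the 34 CYP genes and in 1451 of 12051 genes. The directions below are therefore relative to the bulk of protein-coding genes.

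**Figure D1:**
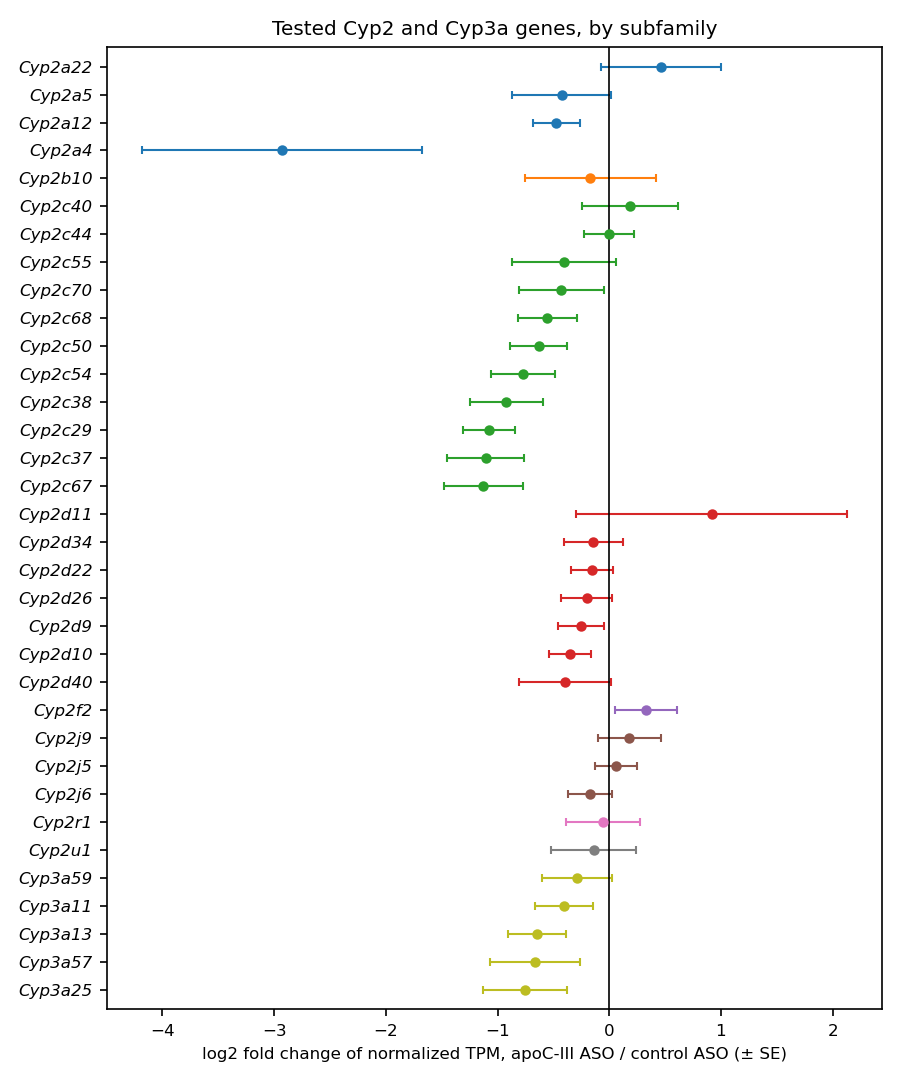
Log2 fold change of normalized TPM (apoC-III ASO over control ASO) with its standard error for the 34 tested genes, colored and grouped by subfamily. Of the 34 points, 27 lie left of 0, and *Cyp2a4* and *Cyp2d11* have the widest error bars.

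The *Cyp2c* subfamily, whose enzymes act on arachidonic acid and many drugs, held 6 of the 9 genes that were lower at an unadjusted p under 0.05. It has 15 genes, of which 11 were tested. Of these 11, 9 had a log2 fold change below 0 (50.1% of all genes) and 6 were lower at that p (2.57%). The summed normalized TPM of the 15 was 1996 ± 258 (SD, n = 5) with the apoC-III ASO and 3351 ± 963 (SD, n = 4) with the control ASO. The difference was -40.4%, or -30.7% without control ASO replicate 4. The sums did not overlap, with 1569 to 2223 against 2601 to 4761. As a share of all 56 genes, *Cyp2c* took 13.3% to 21.1% and 19.4% to 26.1%, which overlap.

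Of the 15 *Cyp2c* genes 14 lie side by side at chr19:39007019-40187333 (GRCm38), and *Cyp2c44* lies apart on the same chromosome at chr19:44005022-44029208. Of the 10 tested genes of the cluster, 9 had a log2 fold change below 0, the exception being *Cyp2c40* with 0.18 (SE 0.43). *Cyp2c44*, which was picked out after its values were seen, had a log2 fold change of 0.00 (SE 0.22), with 279 ± 45.6 normalized TPM (SD, n = 5) against 282 ± 68.4 (SD, n = 4).

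The stretches upstream of 6 genes are shown. Of these, 4 belong to the 6 genes of the *Cyp2c* cluster with an unadjusted p under 0.05 by limma. The others belong to *Cyp2a4*, which was near 0 in some livers, and to its close copy *Cyp2a5*. They are the 170 bases before the RefSeq start of each gene (GRCm38.p6), read 5′ to 3′ on the gene's strand. Capitals mark matches, on either strand, to AGGTCA (an element of nuclear receptors), to TTANGTAA (bound by DBP, TEF and HLF) or to GTTAAT (part of the HNF1 element).
Cyp2c29, chr19:39286915-39287084, plus strand: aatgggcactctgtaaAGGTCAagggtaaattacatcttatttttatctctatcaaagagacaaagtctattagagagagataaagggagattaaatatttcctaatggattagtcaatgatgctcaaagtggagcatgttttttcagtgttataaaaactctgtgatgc
Cyp2c38, chr19:39463076-39463245, minus strand: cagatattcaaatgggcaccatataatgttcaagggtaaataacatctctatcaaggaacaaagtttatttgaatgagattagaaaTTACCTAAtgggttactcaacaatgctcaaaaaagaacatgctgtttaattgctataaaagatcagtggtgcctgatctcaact
Cyp2c37, chr19:39992254-39992423, plus strand: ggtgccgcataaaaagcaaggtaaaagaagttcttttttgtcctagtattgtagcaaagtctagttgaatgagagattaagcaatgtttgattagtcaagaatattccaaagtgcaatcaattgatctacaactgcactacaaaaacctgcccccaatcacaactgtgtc
Cyp2c50, chr19:40089509-40089678, plus strand: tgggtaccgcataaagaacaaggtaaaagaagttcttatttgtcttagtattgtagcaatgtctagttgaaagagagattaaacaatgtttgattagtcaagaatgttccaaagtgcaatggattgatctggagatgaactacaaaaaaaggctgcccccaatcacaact
Cyp2a4, chr7:26307022-26307191, plus strand: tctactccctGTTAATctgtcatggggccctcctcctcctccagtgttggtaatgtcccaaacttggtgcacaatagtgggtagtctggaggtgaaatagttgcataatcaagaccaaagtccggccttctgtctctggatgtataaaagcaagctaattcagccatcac
Cyp2a5, chr7:26835169-26835338, plus strand: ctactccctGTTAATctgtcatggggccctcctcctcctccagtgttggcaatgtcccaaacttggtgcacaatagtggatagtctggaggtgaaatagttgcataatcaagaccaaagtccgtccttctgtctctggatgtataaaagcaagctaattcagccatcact

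RefSeq held a promoter for 48 of the 56 genes and for 29 of the 34 tested. Over 250 bases upstream, *Cyp2c37* and *Cyp2c50* were 84.3% identical and *Cyp2a4* and *Cyp2a5* 97.6%, whereas *Cyp2c29* shared 68.8% with *Cyp2c38* and 57.6% with *Cyp2c37*. In that window AGGTCA was found in 15 of the 48 promoters and in 14.04% of 32536 promoters of all genes. TTANGTAA was found in 1 of the 48 (*Cyp2c38*) against 2.03%, and GTTAAT in 6 of the 48 against 6.47%. A match is a string of letters and not a measured binding site. Among the promoters of the CYP genes that were lower at an unadjusted p under 0.05, AGGTCA was found in 1 of 8 (12.5%), and that of *Cyp2c67*, not shown, held none of the 3 strings.

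*Cyp2c29*, whose enzyme makes epoxides of arachidonic acid, was the most abundant gene of the subfamily. Its normalized TPM was 703, 673, 681, 680 and 576 in the apoC-III ASO livers and 1222, 1164, 1214 and 2182 in the control livers. The 5 livers of the apoC-III ASO group lay close together and below all 4 controls, of which replicate 4 was far above the others. The log2 fold change was -1.07 (SE 0.23, unadjusted p = 0.000698, limma adjusted p = 0.647). The group means differed by -54.2%, and by -44.8% without control ASO replicate 4. The study's heat map holds genes with an adjusted p under 0.05 by DESeq2 on read counts of these livers, and it lists *Cyp2c29*. Limma on TPM did not call this gene, so the study's test and the one used here differ. The values of *Cyp2c29* here are a description and not independent evidence.

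*Cyp2c37*, *Cyp2c54* and *Cyp2c50* are neighbors of each other in the cluster, and their products have close sequences. Other *Cyp2c* genes, among them *Cyp2c38* and *Cyp2c67*, lie between them and *Cyp2c29*. *Cyp2c37* stood at 79.3, 69.5, 40.5, 84.98 and 80.9 normalized TPM with the apoC-III ASO and at 137, 125, 93.4 and 308 with the control ASO. The groups did not overlap, and the log2 fold change was -1.11 (SE 0.34, unadjusted p = 0.00784, limma adjusted p = 0.859). *Cyp2c54* stood at 143, 118, 78.9, 88.0 and 96.8 against 166, 154, 123 and 304, with the largest apoC-III ASO value above the smallest control. *Cyp2c50* showed the same overlap of single livers, at 320, 266, 212, 295 and 250 against 446, 337, 296 and 653. Their log2 fold changes were -0.77 (SE 0.28) and -0.63 (SE 0.26), with limma adjusted p of 0.859 and 0.877. In all 3 genes control ASO replicate 4 was the highest liver, and without it the group means differed by -40.1%, -28.9% and -25.2%.

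*Cyp2c67* and *Cyp2c38* had fold changes of like size at lower levels. *Cyp2c67* had 59.7, 194, 90.9, 97.2 and 48.4 normalized TPM with the apoC-III ASO and 181, 185, 167 and 238 with the control ASO. A single liver, apoC-III ASO replicate 2, overlapped the controls (log2 fold change -1.13, SE 0.35). *Cyp2c38* was near the low end, at 2.88, 7.59, 2.94, 3.50 and 4.01 against 6.73, 6.83, 15.6 and 6.61. Again apoC-III ASO replicate 2 was the liver that overlapped (log2 fold change -0.92, SE 0.32). *Cyp2c70*, which in mice makes the muricholic bile acids, ranged from 151 to 568 and from 350 to 616, and its log2 fold change was -0.43 (SE 0.38).

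Close copies limit how far these genes can be told apart in a TPM table. Of the 31-base words in its transcripts, *Cyp2c29* shared 10.4% with other genes, *Cyp2c50* 29.2%, *Cyp2c54* 42.3%, *Cyp2c37* 47.4% and *Cyp2c67* 67.6%. *Cyp2c44*, *Cyp2c70* and *Cyp2f2* shared none. The values of *Cyp2c67*, *Cyp2c37* and *Cyp2c54* are therefore less certain than that of *Cyp2c29*. Outside *Cyp2c*, the share was 34.5% for *Cyp2a12*, 45.9% for *Cyp3a25* and 50.2% for *Cyp2d10*, and the same limit holds for these genes.

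**Figure D2:**
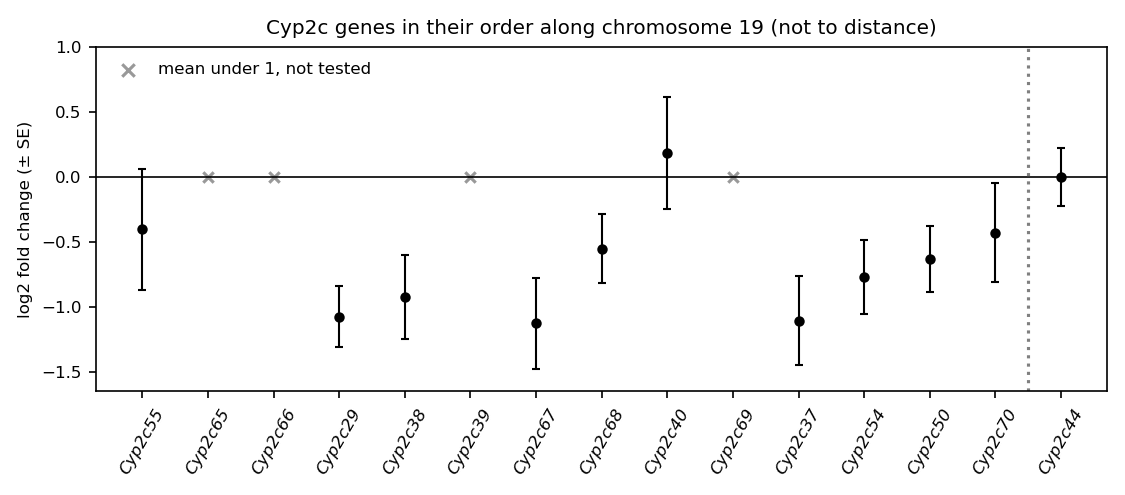
Log2 fold change with its standard error for the *Cyp2c* genes in their order along chromosome 19, with gray crosses for the 4 genes not tested and a dotted line before *Cyp2c44*, which lies outside the cluster. *Cyp2c29*, *Cyp2c67* and *Cyp2c37* lie lowest, near -1.1, and *Cyp2c44* lies at 0.00.

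Ratios between 2 genes of one liver do not depend on the scaling. The ratio of *Cyp2c29* to *Cyp2c44* was 1.95 to 2.96 in the apoC-III ASO livers and 4.12 to 5.87 in the control livers. For *Cyp2c37* to *Cyp2c44* it was 0.162 to 0.306 against 0.422 to 0.829. For *Cyp2c29* to *Cyp2f2* it was 0.143 to 0.2998 against 0.433 to 0.985. None of these 3 ratios overlapped between groups, whereas that of *Cyp3a11* to *Cyp2f2* did (0.619 to 0.903 against 0.811 to 1.80). The genes were chosen for these ratios after their values were seen, so the ratios describe unequal levels within livers and were not tested.

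**Figure D3:**
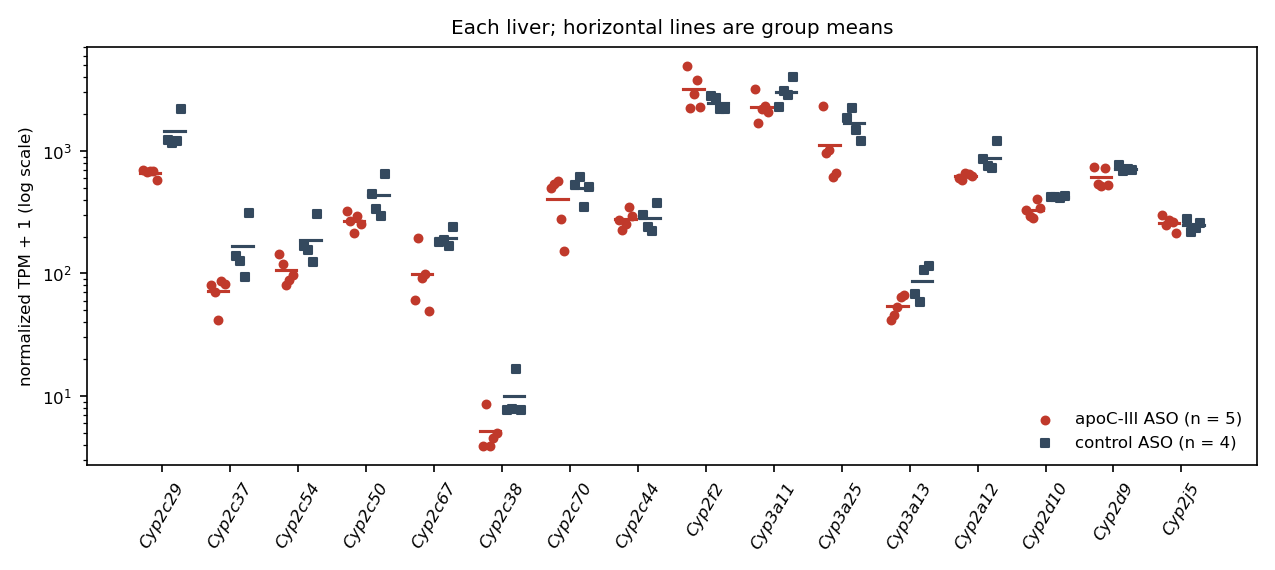
Normalized TPM plus 1 on a log axis for 16 CYP genes in each liver, with circles for the 5 apoC-III ASO livers, squares for the 4 control ASO livers and lines at the group means. The groups are apart for *Cyp2c29*, *Cyp2c37*, *Cyp2a12* and *Cyp2d10*, and intermixed for *Cyp2c44*, *Cyp2c70*, *Cyp2f2* and *Cyp2j5*.

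The *Cyp3a* subfamily metabolizes steroids, bile acids and a large share of drugs. All 5 tested genes of its 9 had a log2 fold change below 0 (50.1% of all genes), with a median of -0.65. Of the 5, 1 (*Cyp3a13*) was lower at an unadjusted p under 0.05 by limma (2.57% of all genes). The summed normalized TPM was 3523 ± 1229 (SD, n = 5) against 4895 ± 593 (SD, n = 4), a difference of -28.0%. *Cyp3a13* had 40.9, 45.1, 52.0, 63.5 and 65.2 with the apoC-III ASO and 67.4, 57.6, 105 and 115 with the control ASO. Its groups overlapped in control ASO replicate 2, and its log2 fold change was -0.65 (SE 0.26, limma adjusted p = 0.877). The group means of *Cyp3a13* differed by -38.1%, and by -30.4% without control ASO replicate 4. *Cyp3a11*, the main PXR-induced CYP of mouse liver, had 3230, 1681, 2186, 2336 and 2065 against 2265, 3078, 2833 and 3978. Here apoC-III ASO replicate 1 exceeded 3 of the 4 controls, and the log2 fold change was -0.41 (SE 0.26). *Cyp3a25* had 2311, 953, 1016, 614 and 653 against 1848, 2253, 1492 and 1197. The same liver was the highest of all 9, while the other 4 apoC-III ASO livers lay below every control (log2 fold change -0.75, SE 0.38). *Cyp3a41a* shared 99.9% of its 31-base words with other genes, and it and its copy *Cyp3a41b* were not tested.

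The *Cyp2a* subfamily holds the coumarin hydroxylase *Cyp2a5* and its close copy *Cyp2a4*, a steroid hydroxylase. All 4 genes were tested and 3 had a log2 fold change below 0 (50.1% of all genes). *Cyp2a12* had 599, 574, 656, 649 and 626 normalized TPM with the apoC-III ASO and 851, 747, 721 and 1205 with the control ASO. The 5 values lay below all 4 controls, with a log2 fold change of -0.47 (SE 0.21, limma unadjusted p = 0.0454, adjusted p = 0.877). The group means of *Cyp2a12* differed by -29.5%, and by -19.7% without control ASO replicate 4, its highest liver. *Cyp2a4* had 0.475, 70.6, 51.2, 1.38 and 183 against 97.3, 133, 207 and 154. Replicates 1 and 4 of the apoC-III ASO group were close to 0, replicate 5 lay within the control range, and the log2 fold change of -2.93 had an SE of 1.25. *Cyp2a5* ranged from 497 to 1995 with the apoC-III ASO and from 950 to 2662 with the control ASO, with a log2 fold change of -0.43 (SE 0.44). Its group means differed by -21.7%, and by 5.91% without control ASO replicate 4, the highest liver. The ratio of *Cyp2a4* to *Cyp2a5* was 0.0007 in the 2 livers near 0 and between 0.0580 and 0.185 in the other 7. *Cyp2a4* shared 58.1% of its 31-base words with other genes, chiefly *Cyp2a5*, so how reads were divided between the pair bears on both values.

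*Cyp2f2*, best known for activating naphthalene, was the single gene of its subfamily and had the highest mean of all 56. It ranged from 2245 to 4931 normalized TPM with the apoC-III ASO (mean 3228 ± 1135, SD, n = 5) and from 2196 to 2794 with the control ASO (mean 2473 ± 312, SD, n = 4). These ranges overlap, and the log2 fold change was 0.33 (SE 0.28, limma adjusted p = 0.923). As a share of the 56 genes it took 21.1% to 30.2% in the apoC-III ASO livers and 12.1% to 19.4% in the control livers, which do not overlap. A share is set by the other genes too, and several abundant ones had lower means.

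**Figure D4:**
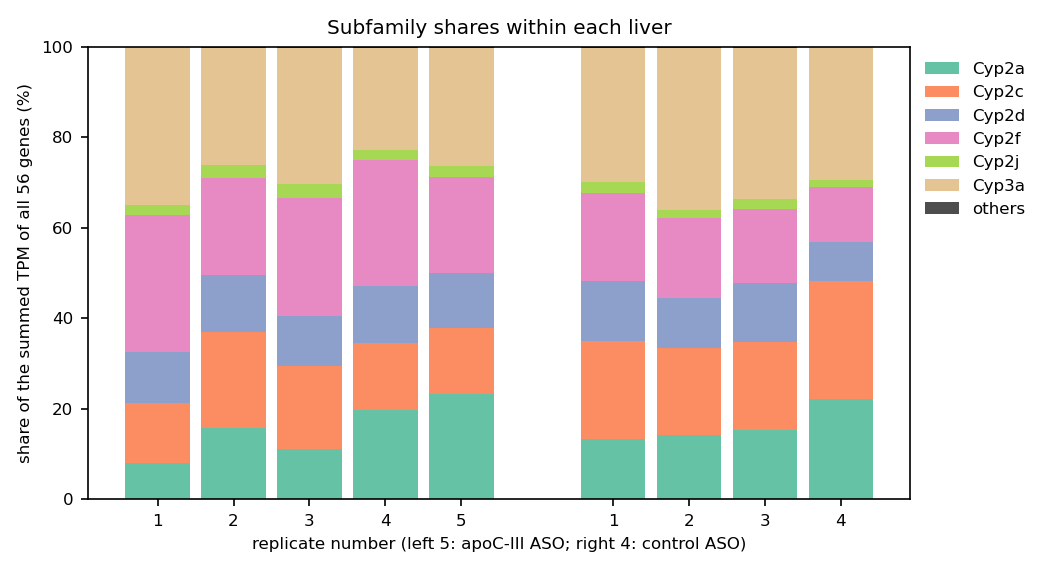
Share of the summed TPM of all 56 genes taken by each subfamily, in percent, as 1 stacked bar for each of the 9 livers. *Cyp2f* takes 21.1% to 30.2% in the apoC-III ASO livers and 12.1% to 19.4% in the controls, while *Cyp2d* stays between 8.62% and 13.4% in all.

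The *Cyp2d* genes, related to the human debrisoquine hydroxylase, held 1488 ± 275 normalized TPM (SD, n = 5) against 1731 ± 158 (SD, n = 4), a difference of -14.04%. Of the 8 genes 7 were tested, 6 had a log2 fold change below 0 (50.1% of all genes) and none had an unadjusted p under 0.05 by limma. *Cyp2d10* had 328, 294, 285, 402 and 343 with the apoC-III ASO and 418, 421, 411 and 425 with the control ASO. The controls lay within a narrow band and above every treated liver, with a log2 fold change of -0.35 (SE 0.19, limma adjusted p = 0.892). *Cyp2d9*, a male-biased steroid hydroxylase, ranged from 519 to 733 and from 687 to 767, and its log2 fold change was -0.25 (SE 0.20). Both signs turn under another scaling: without factors *Cyp2d10* had a log2 fold change of 0.13 and *Cyp2d9* of 0.23, and *Cyp2a12* was at 0.00. *Cyp2d11* reached 218 in apoC-III ASO replicate 1 alone, and the other 8 livers lay at 0.644 to 3.26. *Cyp2d10* shared 50.2% of its 31-base words with other genes and 34.1% with *Cyp2d11*, so how reads were divided between the pair bears on both values.

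The *Cyp2j* genes, whose products make epoxides of fatty acids, kept close to equal means. Their sum was 318 ± 44.9 normalized TPM (SD, n = 5) against 305 ± 27.8 (SD, n = 4), a difference of 4.23%. *Cyp2j5* ranged from 214 to 300 and from 219 to 277 (log2 fold change 0.06, SE 0.19), and *Cyp2j9* from 20.5 to 42.9 and from 17.8 to 32.9 (log2 fold change 0.18, SE 0.28). Of the 8 genes 5 were too low to be tested. In the *Cyp2b* subfamily, the main CAR-induced group, *Cyp2b10* was the sole gene tested. It reached 14.1 in the fifth apoC-III ASO liver, while the other 8 livers lay at 0.532 to 3.77 (log2 fold change -0.17, SE 0.58). *Cyp2b9*, which is higher in female mice, reached at most 1.16.

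The remaining subfamilies have 1 gene each. *Cyp2r1*, a vitamin D 25-hydroxylase, ranged from 3.97 to 10.3 and from 3.26 to 10.4, with a log2 fold change of -0.05 (SE 0.33). *Cyp2u1*, a fatty acid hydroxylase, ranged from 5.43 to 11.1 and from 3.28 to 17.4, with a log2 fold change of -0.14 (SE 0.38). *Cyp2g1*, an olfactory enzyme, and *Cyp2s1* stayed at or below 2.15 and 0.444 in every liver. *Cyp2t4* and *Cyp2w1* were listed at 0 throughout. With groups of 5 and 4, the exact two-sided permutation test cannot give a p below 0.0159. Among the 21 named genes that were tested, this value was reached by the 4 without overlap. Groups without overlap always give it, so this p restates the lack of overlap and is no further evidence.

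Genes that serve or control these enzymes were read from lists chosen with earlier results of these data known. Of 5 genes for electron donors, 0 had an unadjusted p under 0.05 by limma in either direction. Over all genes, 2.57% were lower and 2.99% higher at that p. *Por*, the reductase itself, varied widely: it had 93.1, 137, 58.1, 683 and 656 normalized TPM with the apoC-III ASO and 234, 361, 318 and 588 with the control ASO (log2 fold change -0.81, SE 0.69). Replicates 4 and 5 of the apoC-III ASO group lay above every control and the other 3 below. *Pgrmc1*, a heme-binding partner of CYP enzymes, had a log2 fold change of 0.22 (SE 0.24). Of 16 regulators, 1 was higher and 0 were lower at an unadjusted p under 0.05, which is near the shares of all genes (2.99% and 2.57%). The 1 gene was *Stat5b*, the growth hormone signal transducer, with a log2 fold change of 0.81 (SE 0.31). *Nr1i3* (CAR) had a log2 fold change of -0.46 (SE 0.25), *Nr1i2* (PXR) of -0.07 (SE 0.21) and the clock output factor *Dbp* of -1.99 (SE 1.01). *Dbp* stood at 2.96, 22.4, 2.73, 154 and 98.8 with the apoC-III ASO and at 69.0 to 104 with the control ASO, so replicates 4 and 5 again parted from replicates 1 to 3.

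Of 8 heme synthesis genes, *Alad* was lower (log2 fold change -0.65, SE 0.24) and *Uros* higher (0.66, SE 0.27) at an unadjusted p under 0.05 by limma. Over all genes, 2.57% were lower and 2.99% higher at that p. The limma adjusted p was 0.859 for *Alad* and 0.877 for *Uros*. *Alas1*, the rate-limiting enzyme of the pathway, ranged from 225 to 1537 and from 439 to 1353 (log2 fold change -0.65, SE 0.52). Among the CYP genes, a list of 7 known to respond to CAR had 7 log2 fold changes below 0. This compares with 27 of the 34 tested CYP genes and 50.1% of all genes. Of the 7, 4 were lower at an unadjusted p under 0.05, against 9 of the 34 and 2.57% of all genes. These 4 are *Cyp2c29*, *Cyp2c37*, *Cyp2c50* and *Cyp2c54*, already described above. *Cyp2b10*, which is among the 7, had medians of 1.21 and 2.26 normalized TPM but means of 3.67 and 2.49, with 1 high liver in the apoC-III ASO group as given above. Of 10 genes listed as higher in females, 2 were tested (*Cyp2a4* and *Cyp2c40*).

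Markers of lobule position were read beside the *Cyp2c* values. Of 8 pericentral markers 8 had a log2 fold change below 0 (50.1% of all genes). Of these, 3 had an unadjusted p under 0.05 by limma (2.57% of all genes were lower at that p). They were the glutamine synthetase *Glul* (-0.85, SE 0.27), the ornithine aminotransferase *Oat* (-1.14, SE 0.26) and the glutamate transporter *Slc1a2* (-1.48, SE 0.34). The group means of *Glul*, *Oat* and *Slc1a2* differed by -45.9%, -56.7% and -66.6%. Without control ASO replicate 4 they differed by -33.3%, -46.4% and -53.0%. Leaving it out moved *Cyp2e1* from -33.3% to -19.0% and *Axin2* from -20.6% to 12.7%. *Cyp1a2*, *Rhbg* and *Lgr5* moved the other way, to -25.4%, -63.3% and -31.6%. The summed level of the 8 was 3061 to 6166 normalized TPM in the apoC-III ASO livers and 5140 to 10149 in the control livers, which overlap. Of 8 periportal markers 6 also had a log2 fold change below 0, with a median of -0.21. The histidine ammonia-lyase *Hal* (0.76, SE 0.33) was higher at an unadjusted p under 0.05 by limma, as were 2.99% of all genes. The periportal sums of 3333 to 7983 and 5411 to 8536 overlapped. The part of lobule position in the CYP values was not tested. *Oat* and *Cyp1a2*, both in the pericentral list, stand in the study's heat map of these livers too. Summed markers of macrophages (70.1 to 99.8 against 63.4 to 111), endothelial cells (79.4 to 119 against 67.3 to 117) and stellate cells (119 to 144 against 132 to 254) overlapped between groups. So did those of cholangiocytes (38.3 to 82.3 against 41.5 to 122) and lymphocytes (6.27 to 18.9 against 11.7 to 20.8). In these lists 1 marker, the stellate gene *Dcn*, had an unadjusted p under 0.05 by limma (log2 fold change -0.57, SE 0.24). Of all genes, 2.57% were lower at that p.

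**Figure D5:**
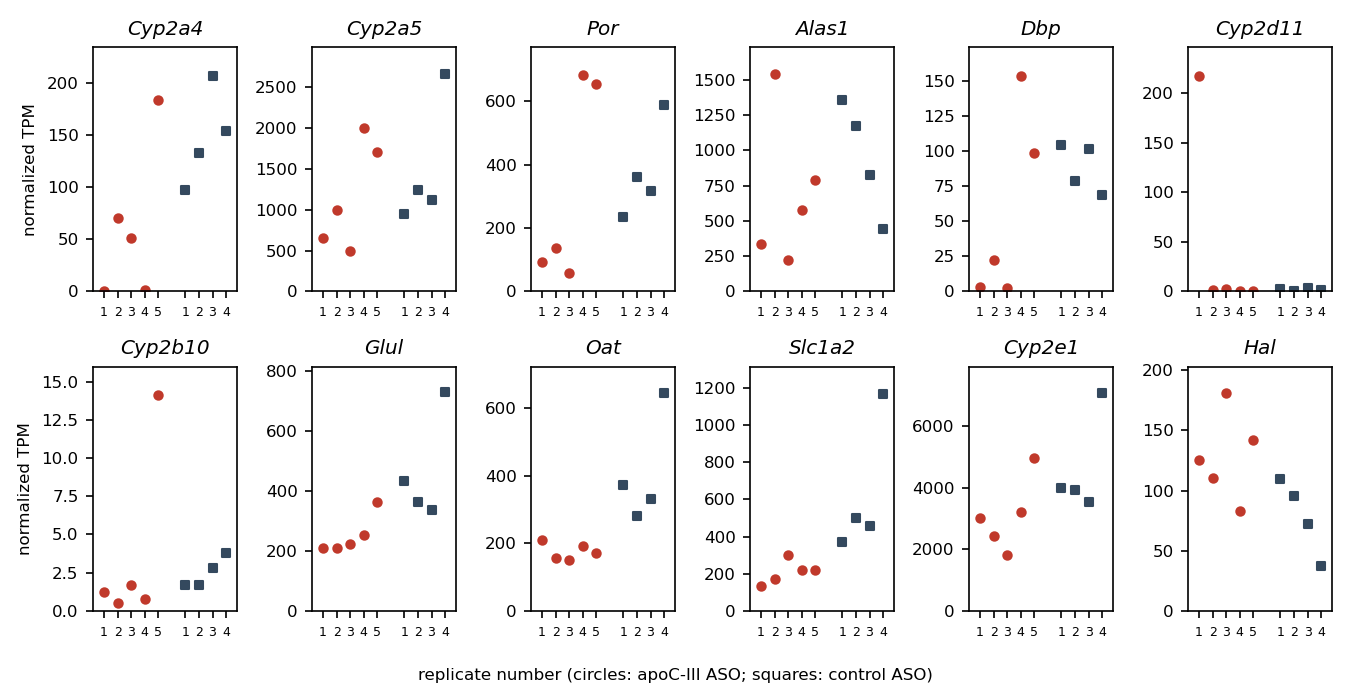
Normalized TPM of 12 genes in each liver on linear axes starting at 0, with circles for apoC-III ASO replicates 1 to 5 and squares for control ASO replicates 1 to 4. *Cyp2a4* is near 0 in 2 apoC-III ASO livers, *Por* and *Dbp* part replicates 4 and 5 from the rest of that group, *Cyp2d11* and *Cyp2b10* are high in 1 liver each, and *Oat* and *Slc1a2* lie lower in all 5.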

How the data were processed

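Livers of 9 mice were compared, 5 given the apoC-III ASO and 4 the control ASO, grouped by their labels. The authors deposited TPM per gene; the submitters' processing notes name kallisto 0.43.1 and GRCm38. The study's methods describe ribo-depleted stranded single-end libraries, with STAR, featureCounts and DESeq2 on read counts that were not used here. TPM keeps no depth.

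Values under 1e-06 TPM were counted and listed as 0, but the group means and the limma fits used them without setting them to 0. Genes were matched to GENCODE M21 (51719 of 51912), and the TPM of the 21857 protein-coding genes of the nucleus was brought to a sum of 1000000 in each liver and divided by median-of-ratios factors from 12257 genes. Genes with a mean of at least 1 were tested on log2(value + 1) with limma 3.58.1 in R 4.3.3 (lmFit, eBayes with trend), with Benjamini-Hochberg adjustment over all 11991 genes. Fold changes are on this log2 scale with a pseudocount of 1, which understates changes of low genes. A gene was called at an adjusted p under 0.05 and over 1.5-fold. Sums, shares and ratios were not tested. The limma step was tested on simulated livers with independent genes and normal spread. The rescaling and the factors were not part of that test. Words of 31 bases were counted in GENCODE transcripts, and promoters came from RefSeq (GRCm38.p6). Other steps ran in Python 3.11.15 with pandas 2.3.3, numpy 2.4.6, matplotlib 3.10.9 and scipy 1.17.1.

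The members and lists were chosen with earlier results of these data known. Named CYP genes are the 2 most abundant of each subfamily, those with an unadjusted p under 0.05 or without overlap, and *Cyp2c29*, which gives 26 genes. *Cyp2c44*, *Cyp2c40*, *Cyp2d11* and the low members were named after their values were seen. Of the lists of electron donors, regulators and heme synthesis, the 2 smallest p of each, *Por*, *Nr1i2*, *Nr1i3* and *Alas1* are named; cell type markers with an unadjusted p under 0.05 were named after their values were seen. Alternatives were other scalings, pseudocounts of 0.1 and 5, no filter or a mean of at least 10, other limma settings, array weights, a replicate block and each liver left out.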

Additional observations from a re-analysis of the deposited data

Results flagged for a closer look

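For each of the 34 tested CYP genes, Dixon's ratio was used in the 5 apoC-III ASO livers and in the 4 control livers, 68 groups in all, to find a liver far from the others. It picked out 9, and chance picks out about 1 in 20 groups. Control ASO replicate 4 accounted for 3 of them: *Cyp2c29* at 2182 normalized TPM with the other 3 controls at 1164 to 1222, *Cyp2a5* at 2662 with the others at 950 to 1241, and *Cyp2j9* at 17.8 with the others at 30.8 to 32.9. ApoC-III ASO replicate 1 accounted for 2: *Cyp3a25* at 2311 with the other 4 at 614 to 1016, and *Cyp2d11* at 218 with the others at 0.644 to 2.36. ApoC-III ASO replicate 5 had *Cyp2c29* at 576 with the others at 673 to 703, and *Cyp2b10* at 14.1 with the others at 0.532 to 1.71. *Cyp2c38* stood out in both groups, at 7.59 in apoC-III ASO replicate 2 (others 2.88 to 4.01) and at 15.6 in control ASO replicate 3 (others 6.61 to 6.83). The causes were not tested.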

How the results depend on the processing

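No CYP gene was called under any of the 22 alternatives run. In TPM as deposited, 1 gene was lower (*Cyp2a4*) and 1 higher (*Cyp2d11*) at an unadjusted p under 0.05, against 48 and 51 of all 4936 genes. In that setting 0 were lower without overlap (2 of all genes), the median log2 fold change was -0.0762 and *Cyp2d9* turned to 0.0645. Without factors these numbers were 2 lower (*Cyp2c29* and *Cyp2a4*), 1 higher (*Cyp2f2*), 1 lower without overlap (*Cyp2c29*), 1 higher without overlap (*Cyp2c44*) and a median of 0.10, where 41, 1287, 12 and 460 of all 12051 genes met the same limits. There the log2 fold change also turned positive for *Cyp2a12* (0.00399), *Cyp2a5* (0.0536), *Cyp2b10* (0.13), *Cyp2c70* (0.0507), *Cyp2d10* (0.13), *Cyp2d9* (0.23), *Cyp2r1* (0.33), *Cyp2u1* (0.24) and *Cyp3a11* (0.0730). With quantile normalization 2 were lower without overlap, against 102 of all 12051 genes. The median was then -0.19, against 0.00215 over all genes, and *Cyp2d9* was at 0.00258. A pseudocount of 5 put *Cyp2b10* at 0.0325, and no filter gave a median of -0.24, against -0.00353 over all genes. The causes were not tested.

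Leaving out each liver in turn gave 6 to 9 lower at an unadjusted p under 0.05 and 4 to 8 lower without overlap, the 8 without apoC-III ASO replicate 1 (195 of 11963 genes). Over all genes these runs gave 255 to 399 and 160 to 252. Log2 fold changes then ran from -0.75 to 0.0761 for *Cyp2b10*, from -0.35 to 0.12 for *Cyp2r1*, from -0.54 to 0.16 for *Cyp2u1* and from -0.0203 to 0.32 for *Cyp2j9*. *Cyp2c29* ran from -1.16 to -0.60 over all 22 alternatives, with a smallest adjusted p of 0.357.

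With the replicate block (apoC-III ASO replicate 5 left out), 10 of 35 genes were lower at an unadjusted p under 0.05, 5 were lower without overlap, 0 were called and the median was -0.29. Of all 11999 genes 475 were lower at that p and 187 lower without overlap. Livers with the same number correlated in their deviations at 0.07, 0.12, 0.03 and 0.19. Values for livers with different numbers are not set beside these, so whether the numbers mark pairs was not tested. TPM keeps no depth, which limits how low genes can be read.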
